A study of Mus musculus with 18 samples.

Results

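The 80 protein-coding genes of cytosolic ribosomal proteins were followed in cultured mouse cortical neurons that lacked or carried Fmr1 and had received the bromodomain inhibitor JQ1 or its vehicle. They were taken by symbol, from Rpsa through the numbered Rps and Rpl genes to Rplp0, Rplp1 and Rplp2, out of 37310 genes in the count table. Of the 80, 32 encode proteins of the small (40S) subunit, 45 encode proteins of the large (60S) subunit and 3 encode proteins of the P stalk. A filter on low counts left 15433 genes to test and 77 of the 80 ribosomal protein genes. Symbols outside the pattern, such as Rack1, Fau, Rpl7l1, Rpl22l1 and Rpl36al, were not counted as members.

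Neurons from Fmr1 knockout (KO) or wild-type (WT) mice were grown for 7 days in B27-supplemented Neurobasal medium and treated for 24 h. The 4 groups of 3 libraries were KO in JQ1, WT in JQ1, KO in DMSO and WT in DMSO, with DMSO taken from the labels as the vehicle. Another 6 samples, treated with THZ1, were not analysed here. Mouse strain, sex, age at dissection and the Fmr1 allele are not stated in the labels, and neither is whether libraries of a group came from separate cultures. The p-values therefore reflect the spread among these libraries, which may be technical.

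A ribosome carries most of its proteins as single copies, cells make them in matched amounts, and most of these transcripts begin with a pyrimidine tract (the 5′ TOP motif) through which mTOR signalling controls their translation. FMRP, the protein made from Fmr1, binds RNA, associates with polyribosomes in neurons and restrains translation. JQ1 occupies the acetyl-lysine pockets of the BET family of chromatin readers and displaces them from chromatin.

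Start-site sequences of members are shown because the transcripts' leading pyrimidines are the feature that this gene family is known for. They come from RefSeq (GRCm38.p6), in which 59 of the 80 members had a promoter entry. The 80 bases run from 60 before the annotated start to 20 from the start on, with the longest pyrimidine run near the start in capitals. The first 5 genes are those with the smallest adjusted p under JQ1 in WT that had an entry. Rpl18 is the member called higher in KO than in WT in both treatments, and Rpl35 is one that no comparison called.
Rps2: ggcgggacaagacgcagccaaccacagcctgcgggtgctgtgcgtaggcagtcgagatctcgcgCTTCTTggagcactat
Rplp0: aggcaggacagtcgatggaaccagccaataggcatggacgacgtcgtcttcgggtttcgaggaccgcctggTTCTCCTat
Rpl7a: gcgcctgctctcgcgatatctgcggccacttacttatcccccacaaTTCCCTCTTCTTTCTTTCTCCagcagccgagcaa
Rpl12: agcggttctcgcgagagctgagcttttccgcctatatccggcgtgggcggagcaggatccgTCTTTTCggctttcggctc
Rps10: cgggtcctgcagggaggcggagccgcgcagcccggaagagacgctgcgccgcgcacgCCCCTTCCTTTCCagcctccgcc
Rpl18: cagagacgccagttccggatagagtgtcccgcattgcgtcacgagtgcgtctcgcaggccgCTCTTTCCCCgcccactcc
Rpl35: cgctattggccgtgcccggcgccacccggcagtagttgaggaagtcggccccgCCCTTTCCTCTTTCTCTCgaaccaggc
The windows lie at chr17:24720003-24720082, plus strand (Rps2), chr5:115559407-115559486, plus strand (Rplp0), chr2:26910747-26910826, plus strand (Rpl7a), chr2:32961652-32961731, plus strand (Rpl12), chr17:27635225-27635304, minus strand (Rps10), chr7:45718011-45718090, plus strand (Rpl18) and chr2:39005112-39005191, minus strand (Rpl35). The longest run was 21 pyrimidines in Rpl7a, 18 in Rpl35, 13 in Rps10 and 10 in Rpl18, while it was 7 in both Rplp0 and Rpl12 and 6 in Rps2.

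Across the members with an entry, a run of at least 8 pyrimidines within 20 bases of the start was present in 29 of 59 (49.2%), against 18.4% of 27025 genes. The median longest run was 7 bases in members and 5 in all genes. In the 300 bases around the start, read on both strands, CCGGAAG (an ETS-type motif) was found in 40.7% of member promoters against 9.93% of all, and GGGCGG (a GC box) in 59.3% against 38.2%. AAGATGGC, a YY1-type motif, was found in 8.47% of member promoters against 3.19% of all. The E-box CACGTG was found in 10.2% against 8.09%, and TATAAA in 10.2% against 15.7%. These matches are letters in a window and were not tested for factor binding. The 29 tested members with such a run had a median log2 change under JQ1 of 0.16 in KO and 0.24 in WT. The 27 tested members with an entry but no run had 0.14 in KO and 0.21 in WT.

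The labels were checked with Fmr1 first. Its level was 21.5 to 34.6 CPM (read counts scaled to library size by TMM) in the 6 KO libraries, against 119 to 154 CPM in the 6 WT libraries. Neuronal markers were high, since the summed level of 9 pan-neuronal genes was 7264 to 8800 CPM in every library. The 10 excitatory neuron genes summed to 1424 to 1608 CPM. Markers of other cell types were present too. Summed levels were 732 to 1883 CPM for 12 astrocyte and radial glia genes and 283 to 478 CPM for 12 progenitor and cell cycle genes. For 10 oligodendrocyte lineage genes they were 161 to 229 CPM. The summed level of 10 microglial genes was 8.05 to 15.7 CPM, with P2ry12 and Tmem119 under 0.1 CPM, and that of 11 vascular and fibroblast genes was 11.2 to 39.3 CPM. Library totals ran from 21643592 to 134110850 gene counts. The KO libraries numbered 3 stood apart in both treatments, with Xist at 4.34 CPM in JQ1 and 4.29 CPM in DMSO, where the other 10 libraries had at least 230.5 CPM. The Y-linked Ddx3y was at 76.2 CPM in JQ1 and 54.5 CPM in DMSO in these libraries, against 28.1 to 46.1 CPM in the other 10. The sexes pooled in a library thus differed between KO and WT, and their part in genotype differences was not tested. Over the ribosomal protein genes, fellow replicates were compared by chi-square values, each divided by its degrees of freedom. These values come from raw counts and rise with read depth, so they do not rank libraries of unequal depth. KO_DMSO replicate 3 differed by 19.6 and 25.4 where replicates 1 and 2 differed by 6.88. KO_JQ1 replicate 3 differed by 11.8 and 12.9 where replicates 1 and 2 differed by 5.87. WT_JQ1 replicate 2, the deepest library at 134110850 gene counts, differed by 20.7 and 13.4 where replicates 1 and 3 differed by 6.59. WT_DMSO replicate 1 differed by 20.8 and 22.2 where replicates 2 and 3 differed by 3.89.

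Ribosomal protein transcripts were abundant and well counted. The 77 tested members had 533 to 88539 reads in any library, and the median of their mean levels was 181 CPM. By mean CPM, which is not scaled to transcript length, the 3 highest were Rpl4 (667 CPM), a core 60S protein that lines the exit tunnel, Rplp0 (571 CPM), the scaffold of the P stalk, and Rplp1 (516 CPM), a small acidic stalk protein. Per kilobase of annotated transcript, Rplp1 stood at 1035 CPM per kb. The lowest tested member by mean CPM was Rps27l, at 24.8 CPM. Ribosomal protein genes have many near-identical processed pseudogenes, and the handling of reads that match several places is not stated in the labels, so single values are uncertain to that extent. The 162 annotated ribosomal protein pseudogenes in the table held 0.281% to 0.329% as many reads as the members.

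JQ1 raised the ribosomal protein transcripts as a family in both genotypes relative to the middle of all genes (on the spike-in scale described below the WT change was downward), and the rise was small and widespread. Their summed level was 17015 ± 451 CPM in KO neurons under JQ1 and 17095 ± 836 CPM in WT neurons under JQ1, against 14943 ± 477 CPM in KO under DMSO and 14378 ± 233 CPM in WT under DMSO (mean ± SD, n = 3 each). As a share of all gene counts these were 1.65% ± 0.056, 1.67% ± 0.098, 1.52% ± 0.062 and 1.49% ± 0.026 in the same order. In KO, 46 of 77 members were called higher under JQ1 (27.7% of all genes tested were) and 2 were called lower (29.4% of all genes were), at an adjusted p under 0.05. In WT, 60 of 77 were called higher (25.9% of all genes) and 0 lower (29.3% of all genes; DESeq2 also called 0 lower, and at an unadjusted p under 0.05 1 member, Rps27l, was lower, as 31.4% of all genes were). With a block per genotype and replicate number, added after seeing the data, WT had 66 members higher (28.8% of all genes) and 1 lower, Rps27l (31.4%). The median log2 change of the members was 0.16 in KO and 0.23 in WT, where that of all genes tested was 0.0014 in KO and -0.0043 in WT.

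**Figure D1:**
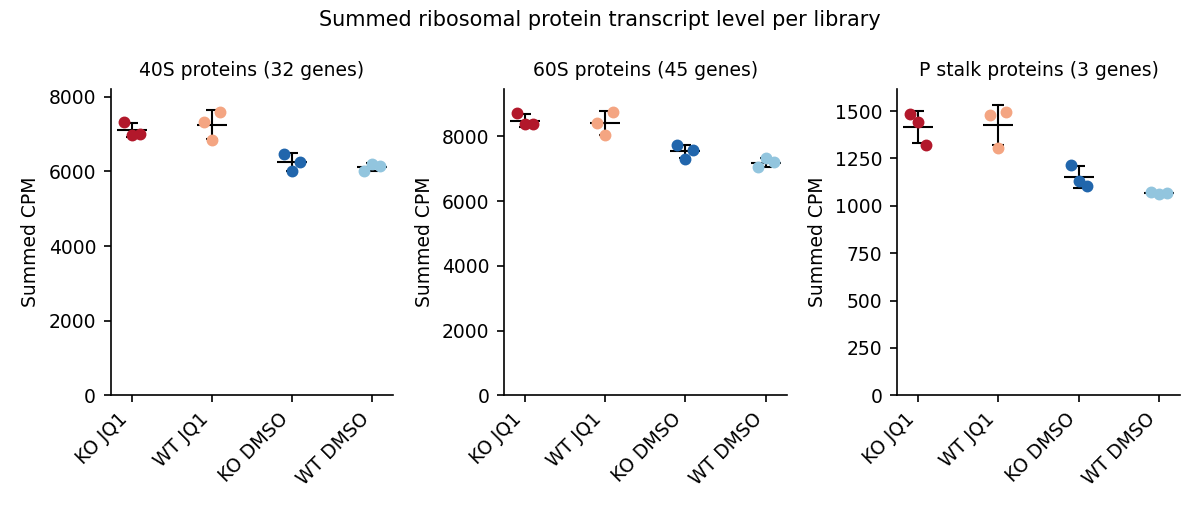
Summed CPM (y axis, from 0) of the 40S, 60S and P stalk genes in each library, by group on the x axis, with points for libraries and black marks for the mean ± SD (n = 3). The JQ1 libraries lie above the DMSO libraries of the same genotype for all 3 sets on this TMM scale, while scaling to spike-ins turned the WT change downward (median of the members -0.43, of all genes -0.64).

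In most members the JQ1 and DMSO libraries did not overlap. In KO, 51 members had every JQ1 library above every DMSO library (29.7% of all genes did) and 2 had every one below (31.1% of all genes). In WT these counts were 64 (30.3%) and 0 (32.3%). The members called higher moved by a log2 change of 0.13 to 0.55 in KO and 0.14 to 0.64 in WT, and 0 of 77 members passed a 2-fold change in any comparison. Of the 77, 45 were called higher in both genotypes, 15 in WT and not in KO, and 1 in KO and not in WT. No share over all genes was computed for these joint counts. Between the genotypes, which share no library, the JQ1 responses of the 77 members correlated with Pearson r = 0.83 and Spearman rho = 0.73, beside 0.94 and 0.92 over all genes tested. This describes genes, which share libraries and are not independent replicates.

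All these changes are relative to other genes. Scaled instead to the ERCC spike-in RNAs, whose added amount the labels do not state, the median of all genes was 0.13 for JQ1 in KO, -0.64 for JQ1 in WT, -0.12 for KO over WT in JQ1 and -0.89 for KO over WT in DMSO. The median of the members on that scale was 0.30 for JQ1 in KO and -0.43 for JQ1 in WT, so the members' direction in WT turned while they stayed 0.17 (KO) and 0.22 (WT) above the median of all genes. In bulk RNA, fewer cells of a type and less RNA per cell cannot be told apart.

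Markers of other cell types were read under the treatment, beside the shares of all genes called. Under JQ1, 27.7% of all genes were called higher and 29.4% lower in KO, and 25.9% higher and 29.3% lower in WT. The summed level of 12 astrocyte and radial glia markers was 732 to 1138 CPM in KO under JQ1 against 1107 to 1481 CPM in KO under DMSO, and 1182.5 to 1524 CPM in WT under JQ1 against 1558 to 1883 CPM in WT under DMSO. Of these 12, 6 were called lower in KO and 7 in WT. Of 12 progenitor and cell cycle markers, 5 were called higher in KO and 4 in WT, with sums of 299 to 382 CPM in KO under JQ1 against 283 to 339 CPM in KO under DMSO, and 416 to 478 CPM in WT under JQ1 against 339 to 381 CPM in WT under DMSO. No marker of either list was at 0 in every library. Of 8 tested microglia markers 5 were called lower in KO and 4 in WT, and of 9 tested vascular and fibroblast markers 5 were called lower in each genotype, or 2 in KO without both KO libraries numbered 3. Of 9 tested oligodendrocyte lineage markers 3 were called lower in each genotype, near the share of all genes. Of 9 pan-neuronal markers 4 were called higher and 5 lower in KO, and 3 higher and 5 lower in WT. Their part in the rise of the ribosomal protein transcripts was not tested.

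The P stalk is the flexible arm of the 60S subunit that recruits the elongation factors, and its 3 genes had a median log2 change of 0.30 in KO and 0.41 in WT, with spike-in scaling turning the WT direction of Rplp0 and Rplp1 (-0.19 and -0.25). Rplp0, which anchors the arm to the ribosome, had 693, 673 and 633 CPM in KO under JQ1 against 542, 518 and 505 CPM in KO under DMSO. In WT it had 665, 601 and 636 CPM under JQ1 against 476, 456 and 454 CPM under DMSO. The lowest JQ1 library thus exceeded the highest DMSO library in each genotype. Its log2 change was 0.35 (SE 0.051, adjusted p = 4.50e-05) in KO and 0.46 (SE 0.051, adjusted p = 4.90e-06) in WT. Rplp1, an acidic protein that pairs with Rplp2 on that scaffold, rose by 0.30 in KO and 0.41 in WT. Rplp2 rose in WT (0.33, adjusted p = 0.00131), while its KO value of 0.11 did not pass (adjusted p = 0.188), with 193, 190.5 and 169.6 CPM in KO under JQ1 against 181, 160.1 and 171 CPM in KO under DMSO.

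Of the 32 genes of the 40S subunit, which binds the mRNA and the initiator tRNA, 19 were called higher under JQ1 in KO and 26 in WT, and 0 lower in either. Over all genes 27.7% were called higher and 29.4% lower in KO, and 25.9% and 29.3% in WT. Rps2, a protein at the mRNA entry channel, had the largest rise of the family in both genotypes. It had 292, 283 and 282 CPM in KO under JQ1 against 202, 195 and 187 CPM in KO under DMSO. In WT it had 275, 266 and 272 CPM under JQ1 against 176, 175 and 171 CPM under DMSO. The 6 JQ1 libraries lay above the 6 DMSO libraries with no overlap, at 1.47-fold in KO and 1.56-fold in WT (log2 0.55, SE 0.042, adjusted p = 1.23e-07, and 0.64, SE 0.042, adjusted p = 3.98e-08).

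Rps20, a protein of the 40S head, followed. It had 321, 309.7 and 325 CPM in KO under JQ1 against 224, 207 and 233 CPM in KO under DMSO, a log2 change of 0.53 (SE 0.055). In WT it had 332, 312 and 341 CPM under JQ1 against 209, 228 and 228 CPM under DMSO, a log2 change of 0.57 (SE 0.055). The KO and WT libraries overlapped in each treatment. Rps10, a protein of the 40S beak that is ubiquitinated when ribosomes stall, had 171, 161 and 158 CPM in KO under JQ1 against 124, 115 and 120.5 CPM in KO under DMSO, and 174, 148 and 180.2 CPM in WT under JQ1 against 115, 122 and 120.0 CPM in WT under DMSO. Its rise was 0.45 in KO and 0.49 in WT, with no overlap in either genotype although the WT libraries under JQ1 were widely spread.

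Of the 45 genes of the 60S subunit, 42 could be tested, and 25 were called higher under JQ1 in KO and 31 in WT, with 2 lower in KO. The shares of all genes were 27.7% higher and 29.4% lower in KO, and 25.9% higher in WT. Rpl7a, a 60S protein encoded in a gene that also holds snoRNAs, had 328, 315 and 309 CPM in KO under JQ1 against 254, 248 and 238 CPM in KO under DMSO. In WT it had 300.2, 281 and 302 CPM under JQ1 against 223, 225 and 223 CPM under DMSO. These gave rises of 0.36 (adjusted p = 1.03e-05) and 0.40 (adjusted p = 5.46e-06) in KO and WT. Rpl12, which sits at the base of the P stalk, had 265, 252 and 232 CPM in KO under JQ1 against 188, 179 and 169 CPM in KO under DMSO, and 241, 209.8 and 238 CPM in WT under JQ1 against 154, 160.2 and 159.8 CPM in WT under DMSO. It rose by 0.48 in KO and 0.54 in WT, the third largest rise of the family in both.

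**Figure D2:**
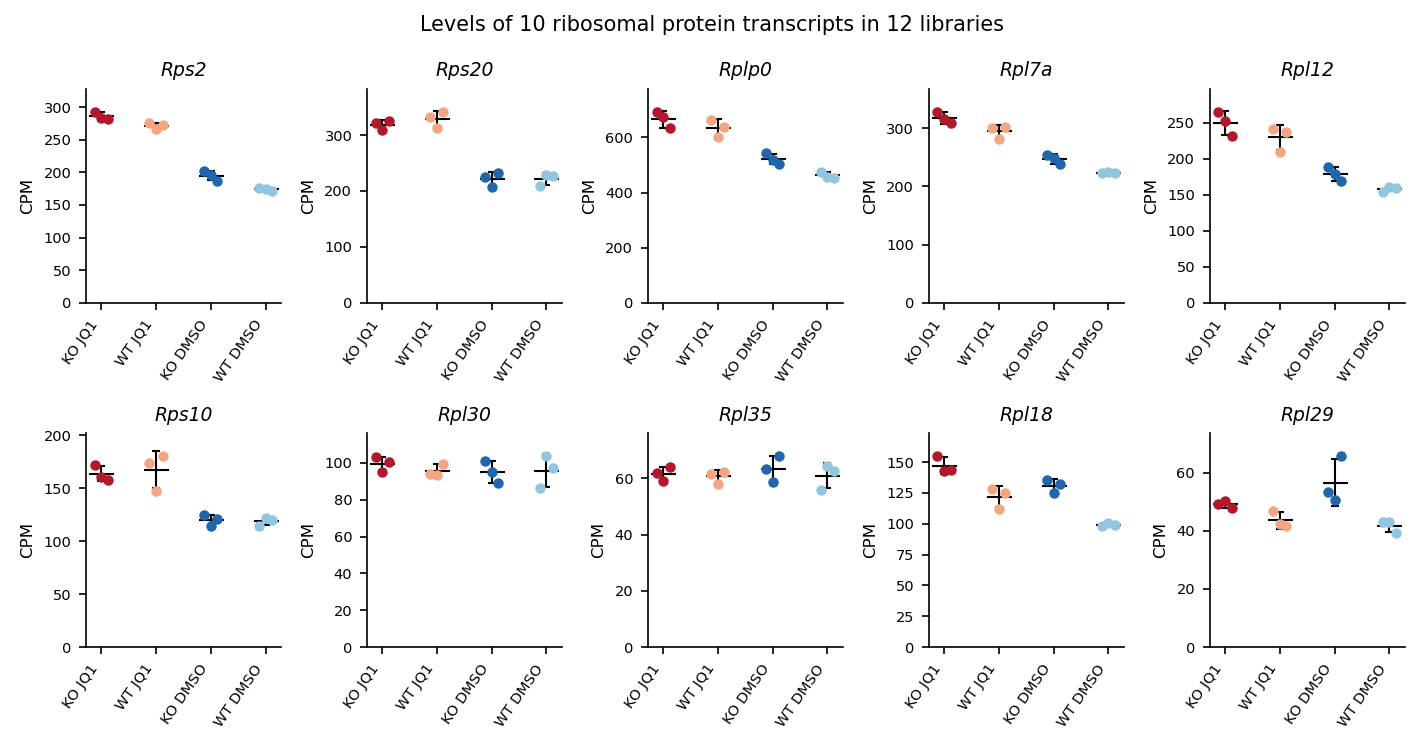
CPM (y axis, from 0) of 10 ribosomal protein transcripts in each of 12 libraries, grouped on the x axis, with points for libraries and black marks for the mean ± SD (n = 3). The upper 5 and Rps10 are higher in the JQ1 than in the DMSO libraries without overlap (on the spike-in scale their WT log2 changes were -0.26 to -0.011), Rpl30 and Rpl35 overlap, Rpl29 is lower under JQ1 in KO, and Rpl18 is higher in KO than in WT in both treatments (with spike-in scaling its difference in DMSO was -0.49).

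Smaller rises completed the list of smallest adjusted p. Rpl5, which carries the 5S ribosomal RNA together with Rpl11 and in that form binds the p53 regulator Mdm2, rose by 0.26 in KO and 0.29 in WT. Rpl32 rose by 0.20 in KO and 0.31 in WT. Rpl7, another 60S protein, rose by 0.32 in KO and 0.30 in WT, and Rpl22, an RNA-binding 60S protein that is not needed for basic translation, rose by 0.25 and 0.18. Rpl22 had 278, 275 and 279 CPM in KO under JQ1 against 238, 232 and 228 CPM in KO under DMSO. Across all members and the 4 comparisons between groups, the SE of a log2 change was 0.041 to 0.096.

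Not all members were called higher under JQ1, which 46 of 77 were in KO and 60 in WT. Of the 77, 14 were called in neither genotype, a count for which no share over all genes was computed. Rpl30, which as an RNA-binding protein limits its own splicing in yeast, had 103, 95.4 and 100.3 CPM in KO under JQ1 against 101, 95.2 and 89.1 CPM in KO under DMSO. In WT it had 94.1, 93.5 and 99.7 CPM under JQ1 against 86.4, 104 and 97.5 CPM under DMSO. Rpl35, a protein beside the exit tunnel whose start-site sequence holds a run of 18 pyrimidines, had log2 changes of -0.041 in KO and -0.010 in WT (SE 0.063 and 0.064). For both genes the JQ1 and DMSO libraries overlapped in each genotype.

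Rpl29 was among the members called lower under JQ1 in KO. Rpl29, a small 60S protein whose loss in mice reduces growth, had 49.2, 50.1 and 47.9 CPM in KO under JQ1 against 53.2, 50.4 and 65.6 CPM in KO under DMSO, a log2 change of -0.20 (SE 0.082, adjusted p = 0.049). The JQ1 and DMSO libraries did not overlap, but only narrowly. Without KO_DMSO replicate 3 the value was -0.093 (adjusted p = 0.223), and no member was called lower in KO without both KO libraries numbered 3. In WT, Rpl29 had 0.066 (adjusted p = 0.528).

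Paralogs of ribosomal proteins were compared with their parent genes. Rps27l, which p53 induces, stood at 49.7 CPM per kb of transcript beside 361 CPM per kb for Rps27. Rps27 rose under JQ1 by 0.23 in KO and 0.23 in WT (adjusted p = 0.00562 and 0.00578). Rps27l had 20.9, 20.8 and 24.4 CPM in KO under JQ1 against 23.0, 22.7 and 23.6 CPM in KO under DMSO, and 26.3, 24.6 and 24.9 CPM in WT under JQ1 against 25.9, 31.3 and 28.9 CPM in WT under DMSO. Its log2 changes of -0.074 in KO and -0.18 in WT did not pass (adjusted p = 0.42 and 0.0507). The WT value passed with no filter on low counts (adjusted p = 0.0422), in a fit of only the groups compared (0.0386), without both KO libraries numbered 3 (0.0318), without WT_DMSO replicate 1 (0.0152) and with the block per genotype and number (0.0332). The other 3 paralogs were too low to test. Rpl3l, a muscle form of Rpl3, had 26 reads over the 12 libraries, and Rpl39l, a testis form of Rpl39, had 22. Rpl10l, the testis form of the X-linked Rpl10, had 0 of 636443542 reads, which allows a level of up to 0.00471 CPM over all libraries, counting error only. The parent Rpl3, which shapes the peptidyl transferase centre, rose by 0.21 in KO and 0.26 in WT.

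The X chromosome holds 4 members, and all 4 were called higher under JQ1 in both genotypes, a direction that spike-in scaling turned in WT for each. Among all genes 27.7% were called higher in KO and 25.9% in WT. Rpl36a rose by 0.26 in KO and 0.38 in WT, and Rps4x, which escapes X inactivation in humans, rose by 0.21 and 0.20. Rpl10, which joins the 60S subunit late in its assembly, rose by 0.19 and 0.16, and Rpl39 by 0.14 and 0.15. The calls of Rpl10 and Rpl39 were lost in each genotype with certain libraries left out. Rpl10 had 0.18 in KO without both libraries numbered 3 (adjusted p = 0.0844) and 0.11 in WT without WT_JQ1 replicate 3 (adjusted p = 0.185). Rpl39 had 0.11 in KO without KO_DMSO replicate 2 (adjusted p = 0.102) and 0.13 in WT without WT_DMSO replicate 1 (adjusted p = 0.0613).

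**Figure D3:**
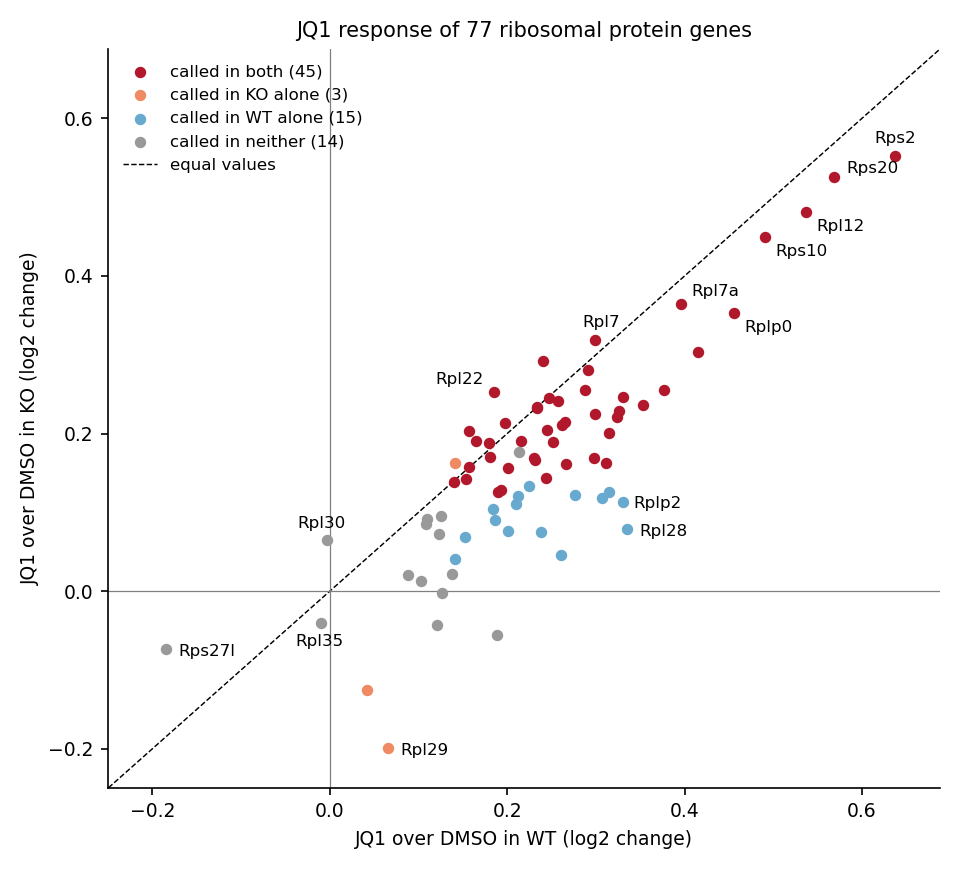
Log2 change under JQ1 in KO (y axis) against that in WT (x axis) for each of 77 ribosomal protein genes, coloured by where they were called, with a dashed line of equal values. Most points lie at positive values in both genotypes and 65 lie below the line; spike-in scaling turned the WT median to -0.43 and the median of the differences between the responses to 0.72.

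Whether the genotypes responded differently to JQ1 was tested directly. No ribosomal protein gene was called (0 of 77, as 0.0% of all genes), DESeq2 also called 0, and 4 members had an unadjusted p under 0.05 (2.3% of all genes did). Among them were Rpl28, Rpl29 and Rplp2, with differences in log2 change (KO minus WT) of -0.26, -0.27 and -0.22. On the scale relative to all genes, the log2 change under JQ1 was lower in KO than in WT for 65 of 77 members. The same held for 46.1% of all genes, rising or falling. The members' median difference was -0.065, which spike-in scaling turned to 0.72. Leaving out 1 library moved this median to -0.032 without WT_JQ1 replicate 3, and to -0.11 without KO_DMSO replicate 2. Over all genes the median was 0.0097, or 0.78 with spike-in scaling, so the members still lay 0.057 below it there. The SE of a single member's difference was 0.059 to 0.14, so differences of the size of the median were not detectable gene by gene. Rpl28, a 60S protein with one of the larger differences, had 98.8, 97.3 and 90.5 CPM in KO under JQ1 against 91.4, 83.1 and 97.2 CPM in KO under DMSO, and 87.1, 83.1 and 87.0 CPM in WT under JQ1 against 58.6, 70.7 and 74.4 CPM in WT under DMSO. Under DMSO all KO libraries of this gene lay above the WT libraries, and the lowest WT library was replicate 1.

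KO was set against WT under DMSO to ask whether loss of FMRP alone changes these transcripts. In DMSO, 12 of 77 members were called higher in KO (7.21% of all genes were) and 2 lower (7.76%), relative to the middle of all genes, while spike-in scaling turned the direction of all 12 and called 0 higher and 71 lower, as it did 84.3% of all genes, whose median was -0.89. The members called higher moved by 0.14 to 0.43. The median of all 77 was 0.056, beside -0.015 over all genes. In 24 members every KO library lay above every WT library (17.0% of all genes) and in 9 every one lay below (20.7%).

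The largest differences were in 3 genes of the 60S subunit. Rpl18 had 135, 125 and 133 CPM in KO against 98.0, 100.2 and 98.7 CPM in WT, a log2 difference of 0.40 (SE 0.055, adjusted p = 8.99e-04). Rpl28 differed by 0.41 (SE 0.077, adjusted p = 0.0046), with the libraries given above. Rpl29 had 53.2, 50.4 and 65.6 CPM in KO against 43.0, 42.9 and 39.4 CPM in WT, a difference of 0.43 (SE 0.083, adjusted p = 0.0052). In all 3 genes the KO and WT libraries did not overlap, and these 3 kept their calls with each library left out in turn.

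The other 9 calls upward were smaller. Among 40S genes, Rps9, whose bacterial counterpart helps keep decoding accurate, was higher in KO by 0.23, Rps16 by 0.25 and Rps2 by 0.16. Among 60S and stalk genes, Rpl13a, which leaves the ribosome to silence inflammatory mRNAs in myeloid cells, was higher by 0.23, Rplp0 by 0.17, Rpl10a by 0.16 and Rpl7a by 0.14. Rps9 had 283, 264 and 282 CPM in KO against 222, 244 and 239.9 CPM in WT (adjusted p = 0.0134). Rpl13a had 289, 278 and 319 CPM in KO against 236, 262 and 258 CPM in WT (adjusted p = 0.0169). The WT_DMSO replicate 1 library was the lowest in both genes. Without it 3 of 77 members were called higher, namely Rpl18, Rpl28 and Rpl29, a share near the 3.71% of all genes then called higher. Without KO_DMSO replicate 1 the number was 6 (3.97% of all genes), and without WT_DMSO replicate 2 it was also 6 (3.67%).

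The members called lower in KO were Rps27l and Rps15a. Rps27l had 23.0, 22.7 and 23.6 CPM in KO against 25.9, 31.3 and 28.9 CPM in WT, a log2 difference of -0.31 (SE 0.075, adjusted p = 0.0147). Rps15a, a 40S protein, had 266, 254 and 241 CPM in KO against 296, 276 and 282 CPM in WT, a difference of -0.17 (SE 0.051, adjusted p = 0.043). Each was apart from WT in all 3 libraries. The call of Rps27l was lost without KO_DMSO replicate 1 or 2 or WT_DMSO replicate 2 or 3, at an adjusted p of 0.0575 to 0.0755. That of Rps15a was lost with each of the 6 DMSO libraries left out (adjusted p of 0.0718 to 0.165), without both KO libraries numbered 3 (0.0933), with DESeq2 size factors (0.0525), with no filter (0.081), with TMM without ribosomal protein genes (0.0683) and in a fit of only the groups compared (0.0642). The parent Rps27 had -0.19 and did not pass (adjusted p = 0.054), while it passed with DESeq2 (-0.18, adjusted p = 0.0387) and with the replicate number as a block (-0.19, adjusted p = 0.0384). The 4 X-linked members did not pass between genotypes in DMSO in the fit reported, with values of 0.19 for Rpl36a, -0.022 for Rps4x, -0.10 for Rpl10 and -0.13 for Rpl39. Rpl36a was not steady, since 8 alternatives called it or moved its value by more than its SE. Leaving out 1 library gave Rpl36a 0.11 to 0.26. The authors' deposited DESeq2 table called Rpl36a higher in KO (0.19, adjusted p = 0.0281). The KO group in DMSO includes replicate 3, the library of low Xist and high Ddx3y.

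**Figure D4:**
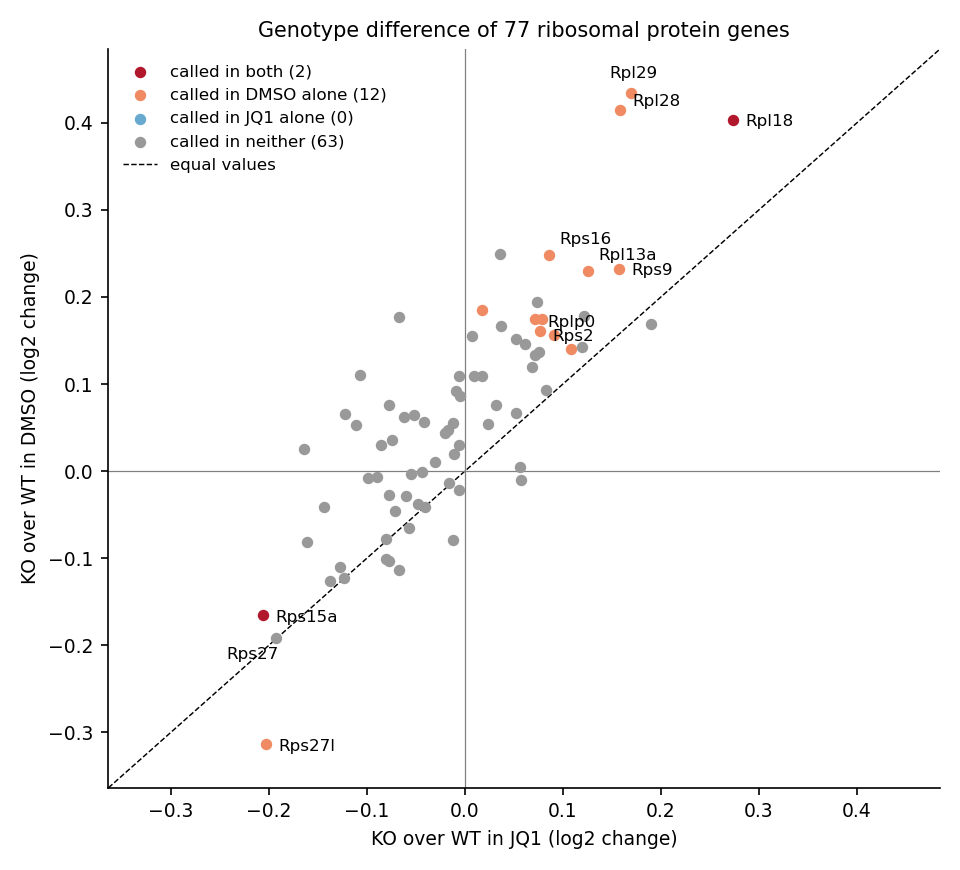
Log2 difference of KO over WT in DMSO (y axis) against that in JQ1 (x axis) for each of 77 ribosomal protein genes, coloured by where they were called, with a dashed line of equal values. Rpl18 and Rps15a were called in both treatments and 12 others in DMSO alone, on a scale relative to all genes; with spike-in scaling 71 members (and 84.3% of all genes) were called lower in KO in DMSO and 0 members in JQ1.

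Under JQ1 few differences between genotypes remained past the threshold. There 1 of 77 members was called higher in KO (4.85% of all genes) and 1 lower (4.13%), and the median was -0.012 beside -0.0045 over all genes. Rpl18 had 155, 143 and 144 CPM in KO against 128, 112 and 125 CPM in WT, a difference of 0.27 (SE 0.055, adjusted p = 0.00879) that was kept with each library left out. Rps15a had 296, 290.5 and 290.1 CPM in KO against 344, 317 and 351 CPM in WT, a difference of -0.21 (SE 0.051, adjusted p = 0.024). The Rps15a call was lost without KO_JQ1 replicate 1 or 2 or WT_JQ1 replicate 1 or 3 (adjusted p of 0.059 to 0.0763) and in a fit of only the groups compared (0.0589). For both genes the KO and WT libraries did not overlap in either treatment. Rps27l had -0.20 (adjusted p = 0.105), and -0.28 (adjusted p = 0.0269) without KO_JQ1 replicate 3. Rps27 had -0.19 (adjusted p = 0.068), and passed with DESeq2 (adjusted p = 0.0396) and with the replicate number as a block (0.0485).

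All 12 members called higher in KO in DMSO had positive values under JQ1, from 0.018 to 0.27. In 12 members every KO library lay above every WT library under JQ1 (14.1% of all genes) and in 9 every one lay below (12.8%). The genotype differences in DMSO and under JQ1 share no library, and over the 77 members they correlated with Pearson r = 0.82 and Spearman rho = 0.79, beside 0.62 and 0.67 over all genes tested. The same sign was found in 56 of 77, with no share computed over all genes. This too describes genes and not replicates, and numbered libraries of a genotype deviated together across treatments.

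Cell type markers were also read by genotype. In DMSO, 7.21% of all genes were called higher in KO and 7.76% lower, or 9.42% and 10.8% without both KO libraries numbered 3. In DMSO, 0 of 12 astrocyte and radial glia markers were called higher in KO and 2 lower, and of 12 progenitor and cell cycle markers 4 were lower. Without both KO libraries numbered 3 these were 4 and 8 lower. Of 10 inhibitory neuron markers 7 were called higher, or 4 without both KO libraries numbered 3, with a summed level of 635 to 701 CPM in KO against 451 to 566 CPM in WT. Of 10 excitatory neuron markers 4 were called higher and 3 lower, and they summed to 1480.0 to 1585 CPM in KO against 1438 to 1565 CPM in WT. Their part in the ribosomal protein differences was not tested.

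The genes higher in KO in DMSO were unevenly placed on the chromosomes, a pattern noticed after their values were seen. Chromosome 7 holds 14 of the 77 tested members, and 6 of these were called higher in KO, against 6 of the other 63. By order along the chromosome the 6, which include Rps9, Rpl28, Rps16, Rpl13a and Rpl18, were among the first 8 members. The median of the 14 was 0.14, and that of the 63 was 0.054. Of 1089 tested genes on chromosome 7 that are no members, 10.1% were called higher in KO and 5.60% lower, against 7.12% and 8.16% of 13716 such genes on other chromosomes. From the chromosome start to the last of the 6, a stretch set by these calls, there were 465 tested genes, members included. Of these, 15.3% were called higher in KO and 4.09% lower. Rps15a, called lower in KO, also lies on chromosome 7, beyond that stretch. The order is that of GENCODE M21 (mouse build GRCm38), which is newer than the mm9 build of the counts, and no test was made of this pattern.

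**Figure D5:**
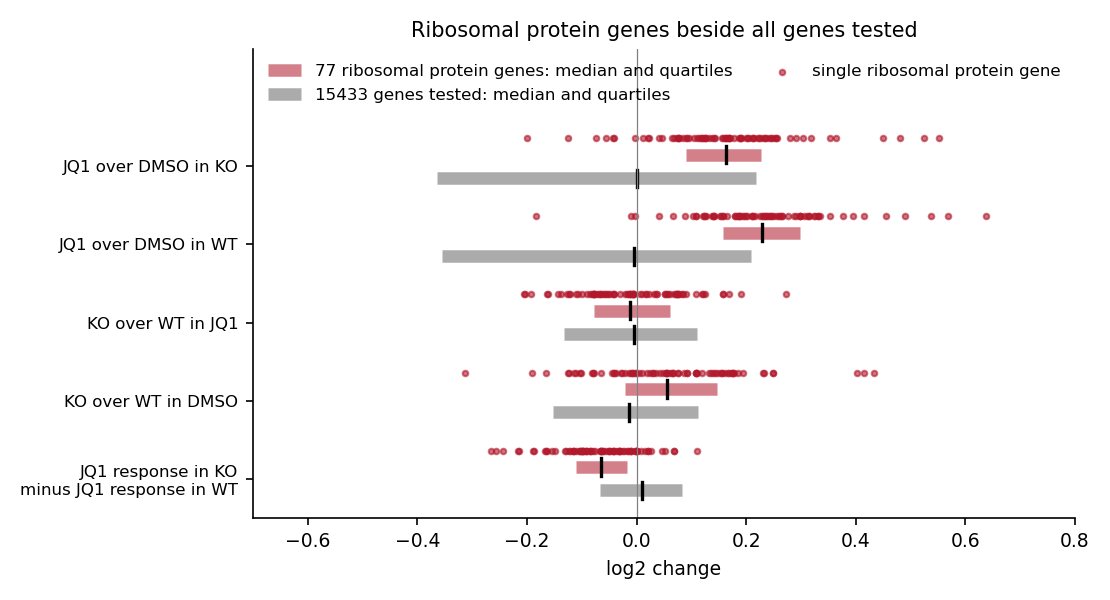
Log2 changes (x axis) in 5 comparisons: single ribosomal protein genes as points, and the median (black mark) and quartiles (bar) of 77 ribosomal protein genes above those of 15433 genes tested. The members' bars sit to the right of all genes under JQ1 in both genotypes, at 0.16 in KO and 0.23 in WT, with spike-in scaling moving these medians to 0.30 and -0.43.

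Several features that the choice of genes did not use were compared with the responses. In 30 of the 77 tested members the annotation places a snoRNA gene inside the gene. Those had a median log2 change under JQ1 of 0.16 in KO and 0.22 in WT, and the 47 without had 0.16 and 0.23. Transcript length ran with the JQ1 response across members at Spearman rho = 0.10 in KO and -0.044 in WT, and mean CPM at 0.42 in KO and 0.17 in WT. As a description of 77 genes that share libraries, the more abundant members had the somewhat larger response in KO. The 40S and 60S genes had like medians, at 0.17 and 0.15 in KO and 0.23 and 0.21 in WT.

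Transcripts of the wider translation machinery were read from lists. Under JQ1, 27.7% of all genes were called higher and 29.4% lower in KO, and 25.9% higher and 29.3% lower in WT. Of 21 elongation factors and other mRNAs of the 5′ TOP class, 9 were called higher and 3 lower under JQ1 in KO, and 11 higher and 2 lower in WT, with medians of 0.12 in KO and 0.13 in WT that spike-in scaling moved to 0.25 in KO and -0.52 in WT. Eef1d, an exchange factor for Eef1a, rose by 0.41 in KO and 0.44 in WT. Pabpc1, the cytoplasmic poly(A)-binding protein, rose by 0.62 and 0.75, and Tpt1 by 0.35 and 0.40. Eef2, which moves the ribosome along the mRNA, rose by 0.40 and 0.53. Between genotypes in DMSO, 4 of the 21 were higher in KO (7.21% of all genes), led by Eef2 (0.22) and Hnrnpa1 (0.19). Npm1 was lower (-0.20), as 7.76% of all genes were. Without both KO libraries numbered 3, 3 of the 21 were lower in KO in DMSO (10.8% of all genes). For KO over WT in JQ1 4 were then lower (7.96% of all genes) where 0 had been.

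Of 44 ribosome biogenesis factors, 26 were called higher and 6 lower under JQ1 in KO (27.7% and 29.4% of all genes). In WT 19 were higher and 3 lower (25.9% and 29.3% of all genes). The medians of 0.15 in KO and 0.080 in WT were moved by spike-in scaling to 0.30 in KO and -0.57 in WT. Ncl, the nucleolar protein nucleolin, rose by 0.47 in KO and 0.42 in WT, Cirh1a by 0.47 and 0.37, and Tsr2, which hands the protein of Rps26 to the ribosome, by 0.39 and 0.41. Ltv1, a 40S assembly factor, had -0.45 and -0.51, both called lower. Of 14 genes of RNA polymerase I and its factors, beside the same shares of all genes, 8 were higher and 1 lower in KO, and 8 higher and 2 lower in WT. The medians of 0.19 in KO and 0.18 in WT were moved by spike-in scaling to 0.32 in KO and -0.47 in WT. Cd3eap, a polymerase subunit, rose by 0.58 and 0.51, and Ubtf, the factor that opens the ribosomal RNA genes, had -0.28 and -0.25, both called lower. Without both KO libraries numbered 3 the biogenesis counts were 19 higher and 3 lower in KO.

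Of 75 tested mitochondrial ribosomal protein genes, 21 were called higher and 16 lower under JQ1 in KO, and 18 higher and 19 lower in WT (27.7% and 29.4% of all genes in KO, and 25.9% and 29.3% in WT), with medians of 0.063 in KO and 0.018 in WT that spike-in scaling moved to 0.19 in KO and -0.63 in WT. Mrpl49 rose by 0.90 and 0.82, and Mrps35 had -0.50 and -0.62, both called lower. Between genotypes 0 were higher and 1 lower in KO in DMSO (7.21% and 7.76% of all genes). Among 4 cytosolic paralogs outside the symbol rule, 2 were higher under JQ1 in each genotype, with Rpl7l1 at 0.34 in KO and 0.27 in WT. The median of these 4 was 0.19 in KO and 0.22 in WT, or 0.32 in KO and -0.43 in WT with spike-in scaling.

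The authors' deposited table of KO against WT in DMSO, made with DESeq2, held 79 of the 80 members, 76 of them with an adjusted p. At an adjusted p under 0.05 the authors' deposited table had 21 members higher and 3 lower in KO, among them all 12 and both genes called here. No share over all genes was computed for that table, which comes from the same series and is no independent check. The DESeq2 fit made here called 9.11% of all genes higher and 7.99% lower. In the authors' deposited table, Rpl18 had a log2 change of 0.40.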

How the data were processed

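RNA-seq was read from raw read counts per gene deposited by the authors for 12 libraries of 4 groups. Per the submitters' processing notes, TopHat2 2.1.0, SAMtools 0.1.19 and HTSeq 0.6.1 were used with genome build mm9. The labels state neither the counting mode nor the strandedness. The authors' deposited table of KO against WT, which holds a baseMean signal (mean normalised count), log2 fold changes with standard errors, a Wald score and p-values, was made with DESeq2 per the submitters' processing notes, and was used for description only.

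CPM (counts scaled to library size) were computed from the deposited counts with TMM scaling in edgeR 4.0.16 (R 4.3.3). The 92 ERCC spike-in entries, of which 86 were detected, stayed out of library sizes. The default filter of filterByExpr (minimum count 10) kept 15433 of 37310 genes. One quasi-likelihood fit held all 12 libraries with 8 residual degrees of freedom, and a gene was called at a Benjamini-Hochberg adjusted p under 0.05 over all 15433. The fit was first tested on simulated data. Gene totals were 21643592 to 134110850 counts per library, and floors from counts cover counting error only. Replicate libraries differed beyond counting error.

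Same-numbered libraries deviated together under JQ1 and DMSO (correlations of 0.375 to 0.416 in KO and 0.146 to 0.188 in WT). The fit reported did not use this pairing, so its SEs and p-values treat the libraries as unpaired. Pairing entered only through the block per genotype and number, an alternative added after seeing the data. Between genotypes the correlations of same-numbered libraries were -0.041 to 0.155 in JQ1 and -0.24 to 0.027 in DMSO.

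The members, gene lists and tests were chosen with earlier results of these data known. Named with values were up to 8 called members in each direction and comparison, members of low count, X-linked members, paralogs, the 3 most abundant members, and up to 4 called genes per other list and comparison. Alternatives were other scalings (DESeq2 size factors, TMM without ribosomal protein genes, ERCC spike-ins), DESeq2 1.42.0, no filter on low counts, a replicate block, a fit of only the groups compared, leaving out libraries, and adjusted p under 0.01. A block per genotype and number, and list counts without both KO libraries numbered 3, were added after seeing the data. Some members are counted in the totals but not reported here by name. Samples treated with THZ1 were not analysed here.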

Additional observations from a re-analysis of the deposited data

How the results depend on the processing

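The rise under JQ1 rests on a scale relative to all genes, and the labels do not state how much spike-in was added. ERCC spike-in scaling left 0 members called higher and 0 lower under JQ1 in KO, 0 higher and 1 lower in WT, 0 and 0 for KO over WT in JQ1, and 0 higher and 71 lower for KO over WT in DMSO, where 84.3% of all genes were lower. Member medians were then 0.30 and -0.43 for JQ1 in KO and WT, 0.72 for the difference of responses, and -0.11 and -0.84 for KO over WT in JQ1 and DMSO. The log2 differences of KO over WT in DMSO turned for Rpl18 (-0.49), Rpl28 (-0.47), Rpl29 (-0.46), Rps9 (-0.66), Rpl13a (-0.66), Rps2 (-0.72), Rpl10a (-0.73), Rps16 (-0.65), Rplp0 (-0.71) and Rpl7a (-0.74). Under JQ1 none of the called members named here turned in KO, and in WT Rps2 (-0.011), Rps20 (-0.083), Rplp0 (-0.19), Rpl7a (-0.26), Rpl12 (-0.12), Rps10 (-0.17), Rpl5 (-0.36), Rpl32 (-0.33), Rpl7 (-0.36), Rpl22 (-0.47), Rpl10 (-0.50), Rpl36a (-0.27), Rpl39 (-0.50), Rps4x (-0.46), Rps27 (-0.42), Rpl3 (-0.39), Rpl4 (-0.45) and Rplp1 (-0.25) turned. No other alternative turned a named member that was called, and the cause was not tested.

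For KO over WT in DMSO, members called higher numbered 19 with TMM without ribosomal protein genes (9.09% of all genes), 21 with DESeq2 (9.11%, against 7.21% in the fit reported) and 3 at adjusted p under 0.01. Members called lower numbered 1 with DESeq2 size factors, with no filter, with TMM without ribosomal protein genes, in a fit of only the groups compared and without both KO libraries numbered 3, and 0 at adjusted p under 0.01. For KO over WT in JQ1, members called higher numbered 2 with no filter and 3 with DESeq2. Members called lower there numbered 2 with the replicate block, without both KO libraries numbered 3 and with DESeq2, and 0 in a fit of only the groups compared and at adjusted p under 0.01. Under JQ1 in WT, 1 member was called lower with no filter, in a fit of only the groups compared and without both KO libraries numbered 3. Under JQ1 in KO, 1 was called lower in a fit of only the groups compared, and 0 without both KO libraries numbered 3 and at adjusted p under 0.01.

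With a block per genotype and number, an alternative chosen after seeing the data, 47 members were called higher and 2 lower under JQ1 in KO, and 66 higher and 1 lower in WT. Of all genes 31.0% were then higher and 31.8% lower in KO, and 28.8% and 31.4% in WT. In WT this pairing added, among others, Rpl14, Rps29, Rpl37, Rpl11 and Rpl17 as higher and Rps27l as lower (adjusted p = 0.0332), and in KO it added Rps29. With the replicate number alone as a block, KO over WT in DMSO had 13 higher and 3 lower, with Rps6 and Rps27 added, KO over WT in JQ1 gained Rps27 as lower, JQ1 in WT had 61 higher, and JQ1 in KO had 1 lower because Rpl29 no longer passed (adjusted p = 0.0626). With that block 8.33% of all genes were higher and 9.74% lower for KO over WT in DMSO, and 6.4% lower for KO over WT in JQ1. Under JQ1 26.7% of all genes were then higher in WT and 30.0% lower in KO. The blocks changed no other call of a member named here.

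Leaving out 1 library in turn gave 33 to 44 members called higher and 0 to 2 lower under JQ1 in KO (median 0.13 to 0.18), and 47 to 66 higher and 0 to 1 lower in WT (median 0.19 to 0.26). The difference of responses had 0 higher and 0 lower (median -0.11 to -0.032). KO over WT in JQ1 had 1 higher and 0 to 2 lower (median -0.041 to 0.022), and in DMSO 3 to 15 higher and 0 to 1 lower (median 0.036 to 0.11). Among all genes 1.96% to 6.43% were higher and 1.49% to 6.28% lower for KO over WT in JQ1. In DMSO 3.67% to 9.96% were higher and 1.8% to 6.63% lower.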
